A study of Rattus norvegicus albus with 14 samples.

Results

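The 9 genes Fos, Fosb, Fosl1, Fosl2, Jun, Junb, Jund, Atf3 and Batf3 encode AP-1 transcription factors. They were taken by their gene symbols from count tables of 32545 rat genes, and each symbol matched 1 gene. All 9 passed the filter on low counts, so that no member is missing from the comparisons. Batf3 did so with 0 to 24 reads per library, and only through the libraries of 48 h. RNA came from neonatal rat ventricular myocytes, heart muscle cells isolated from 1-day-old Sprague-Dawley rats, pooled, cleared of fibroblasts by preplating and cultured. After an overnight stay in serum and another in serum-free minimal medium, all cultures were moved to medium with insulin, transferrin and selenium. Controls received 1% DMSO for 0.5 h (1 library), and the other groups received 10 µmol/L rosiglitazone in 1% DMSO for 0.5, 24 or 48 h (2 libraries each). Every group thus carried DMSO. Since the single vehicle library was of 0.5 h and vehicle at 24 or 48 h was not analysed here, drug and time in culture cannot be told apart in comparisons between times. Rosiglitazone, a drug of the thiazolidinedione class, is an agonist of the nuclear receptor PPARγ.

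AP-1 binds DNA as a dimer of basic leucine zipper (bZIP) proteins. Jun proteins can pair with each other or with a Fos protein, whereas Fos proteins need a partner. Atf3 and Batf3 can also join Jun proteins in dimers. Fos, Fosb, Jun and Junb are immediate early genes: serum, growth factors and hypertrophic agonists induce them within minutes through MAP kinases and serum response factor, and Fos mRNA in particular is short-lived. Fosl1 and Fosl2 are typically induced later, Jund is widely and steadily expressed, and Atf3 responds to many kinds of cell stress. In cultured neonatal heart cells, Fos and Jun are classical early markers of hypertrophic stimulation.

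Libraries held 10886559 to 28074620 counts, and replicate 2 of 48 h was the shallowest. Each library had been deposited as 2 splits that differed by no more than the sampling noise and were counted as 1 sample. The labels do not say whether the 2 libraries of a group were separate cultures; the p-values therefore rest on a spread between libraries that may be only technical. Of the cardiomyocyte markers, 11 were in the tables, and all 11 had reads in every library. Their summed level was 7797 CPM (counts scaled to library size) in DMSO, 13879 and 13437 after 0.5 h of rosiglitazone, 12350 and 2465 at 24 h, and 244 and 1470 at 48 h. The 10 fibroblast markers, largely collagen and matrix genes, summed to more in every library (50372 to 51930 CPM at 0.5 h, 32812 and 35192 at 24 h, 17540 and 33750 at 48 h). Sums over different genes do not give shares of cells, so they were not used to judge the purity that the labels state. The 11 macrophage markers summed to 1029 CPM in DMSO and 171 to 480 CPM elsewhere. In these bulk samples, fewer cells of a type and less RNA per cell cannot be told apart.

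The Fos genes split into a pair with high levels at 0.5 h and a gene with its high levels later. Fos, the founding member, was at 78.8 CPM in DMSO, at 227 and 173 CPM in rosiglitazone at 0.5 h, at 6.21 and 4.75 CPM at 24 h, and at 3.22 and 14.0 CPM at 48 h. Fosb, its close relative with a strong role in activity-dependent gene expression, was at 123 CPM in DMSO, at 91.8 and 30.4 CPM in rosiglitazone at 0.5 h, at 4.42 and 1.92 CPM at 24 h, and at 1.02 and 2.60 CPM at 48 h. All 3 libraries of 0.5 h lay above all 4 later libraries for both genes, with the lowest early library of Fosb at 30.4 CPM and the highest late one at 4.42 CPM. The reads behind the low values were 88 to 151 per library for Fos and 28 to 101 for Fosb, and counting error leaves them well apart from the 837 to 6444 reads of the early libraries.

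Fosl2, which encodes Fra-2, was at 8.45 CPM in DMSO, at 10.0 and 9.85 CPM in rosiglitazone at 0.5 h, at 4.15 and 38.7 CPM at 24 h, and at 54.9 and 30.7 CPM at 48 h. Both libraries of 48 h and replicate 2 of 24 h were therefore high, while replicate 1 of 24 h was the lowest of the 7. Fosl1, which encodes Fra-1, was at 12.9 CPM in DMSO, at 7.54 and 3.82 CPM in rosiglitazone at 0.5 h, at 6.03 and 9.31 CPM at 24 h, and at 14.8 and 5.95 CPM at 48 h. Its groups overlapped, and the replicates of 0.5 h and of 48 h differed by 1.98 and 2.48 times.

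Among the Jun genes, Jun was lower in the late libraries, as Fos and Fosb were, and Junb was low at 24 h. Jund had the smallest range of the 9 genes over the 7 libraries (0.98 log2 units). Jun was at 180 CPM in DMSO, at 325 and 211 CPM in rosiglitazone at 0.5 h, at 87.7 and 63.1 CPM at 24 h, and at 69.9 and 66.4 CPM at 48 h, again with no overlap between the early and the late libraries. Junb, often a brake on Jun activity, was at 70.0 CPM in DMSO, at 158 and 164 CPM in rosiglitazone at 0.5 h, at 90.2 and 56.8 CPM at 24 h, and at 162 and 147 CPM at 48 h. The mean levels of Junb at 48 h (155 ± 11.2 CPM, SD, n = 2) and of rosiglitazone at 0.5 h (161 ± 3.93 CPM, SD, n = 2) differed by less than the SD of 48 h. The libraries of these groups overlapped. Jund was at 111 CPM in DMSO, at 117 and 115 CPM in rosiglitazone at 0.5 h, at 138 and 154 CPM at 24 h, and at 167 and 220 CPM at 48 h, with all 4 late libraries above all 3 early ones.

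Atf3, a stress-induced repressor, was at 67.3 CPM in DMSO, at 66.5 and 43.1 CPM in rosiglitazone at 0.5 h, at 20.7 and 90.5 CPM at 24 h, and at 186 and 192 CPM at 48 h. Both libraries of 48 h stood above the other 5, and those of 24 h lay on either side of the early ones. Batf3, best known as a factor needed by a class of dendritic cells, had 5 reads in DMSO, 3 and 6 after 0.5 h of rosiglitazone, 0 and 9 at 24 h, and 24 and 11 at 48 h. The count of 0 among 24341710 allows up to 3 reads, or 0.123 CPM before scaling, a limit that covers counting error only. No fold change is given for Batf3 at such counts, and its adjusted p-values in the 5 comparisons below were 0.56 to 1. The 7 dendritic cell markers found in the tables summed to 55.7 CPM in DMSO, 25.5 and 30.7 after 0.5 h of rosiglitazone, 13.8 and 23.0 at 24 h, and 24.6 and 25.5 at 48 h, with 1 to 4 of the 7 at 0 reads per library. In the RefSeq annotation of GRCr8, Batf3 and Atf3 are neighbouring coding genes, and Fos neighbours Jdp2, another AP-1 partner.

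**Figure D1:**
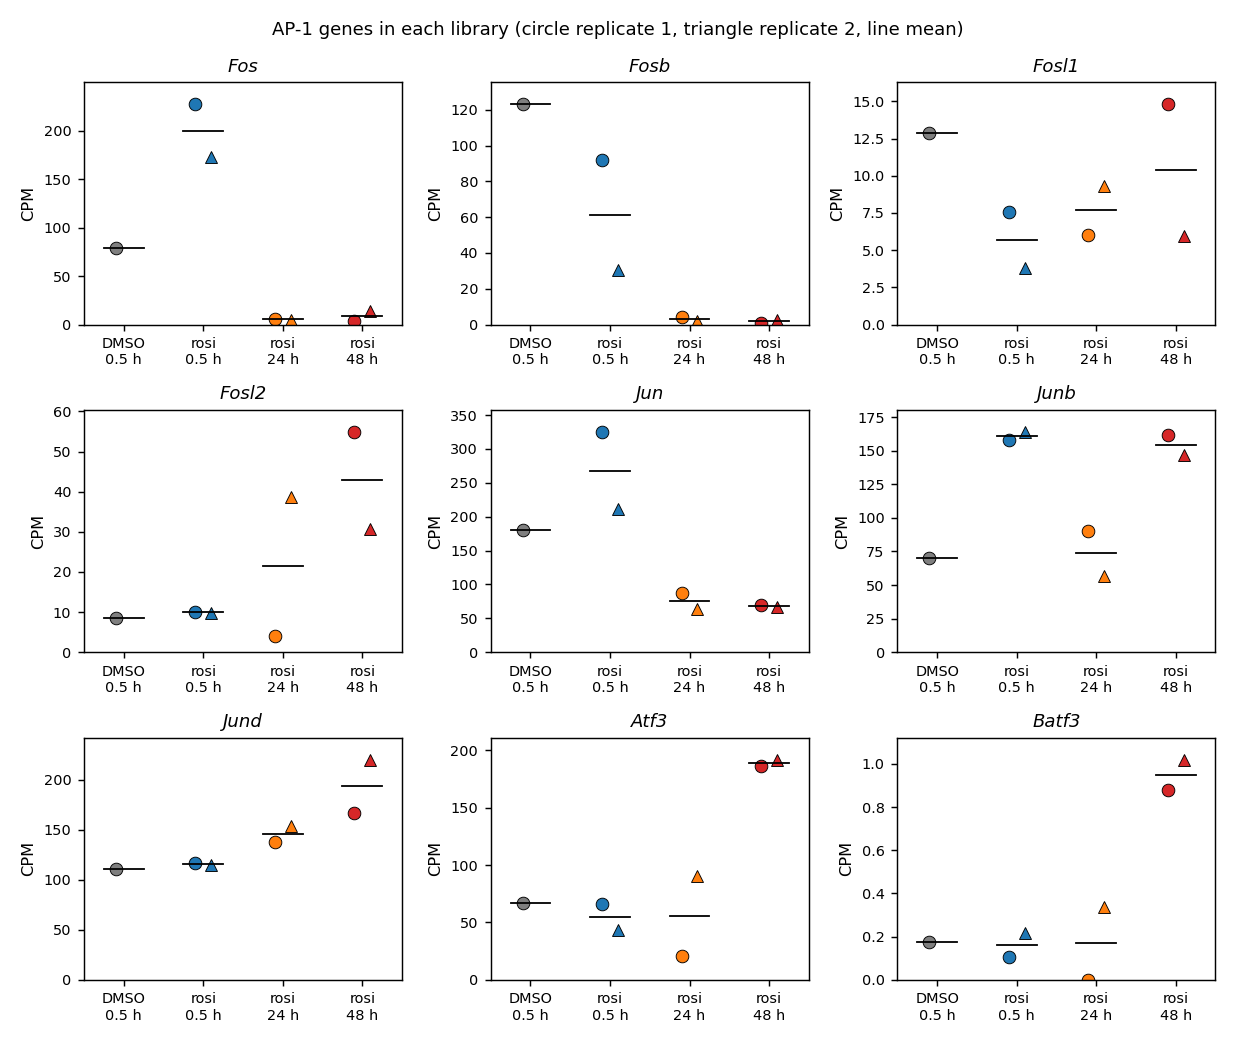
Level of each AP-1 gene in CPM (counts scaled to library size; vertical axis from 0, own scale per gene) in the 7 libraries, grouped by agent and hours (horizontal axis). Circles are replicate 1, triangles replicate 2 and lines group means. Fos, Fosb and Jun have all late libraries below all early ones, while Atf3 reaches 186 and 192 CPM at 48 h.

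Rosiglitazone against DMSO at 0.5 h addresses the early response, with the vehicle at the same time. Fos, Jun and Junb were at higher levels in both rosiglitazone libraries than in the DMSO library, and Fosb, Fosl1 and Atf3 at lower ones. None of the 9 genes passed the threshold (edgeR's quasi-likelihood test, Benjamini-Hochberg adjusted p under 0.05 over all 15655 genes tested), and 0% of all genes did. The log2 difference was 1.20 ± 0.38 (SE) for Junb, 1.34 ± 0.76 for Fos, 0.58 ± 0.39 for Jun, -1.01 ± 0.76 for Fosb and -1.19 ± 0.73 for Fosl1. Before adjustment, Junb alone of the 9 passed the threshold, in a direction in which 0.109% of all genes did. Both libraries lay above the DMSO value for 5 of the 9 genes and below it for 3, where 30.2% and 31.8% of all genes did so.

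With 1 DMSO library the spread in this comparison comes from the other groups. In a fit with only the 3 libraries of 0.5 h, where it rests on the 2 rosiglitazone libraries alone (1 residual degree of freedom) and the DMSO library is assumed to vary like them, Fos (SE 0.27, adjusted p = 0.00015 by edgeR) and Junb (SE 0.26, adjusted p = 0.0012) were called higher, as were 0.217% of all genes. Both had an adjusted p of 1 by edgeR with all groups in the fit, also with any 1 rosiglitazone library left out or the replicate number as a block. The authors' deposited tables list the 2 splits of each library as separate columns, and a step that joined them is not given in the sources used here. Splits counted as replicates make SEs and p-values too small, and the DMSO columns are splits of 1 library. The authors' deposited table gives Fos at 1.2 ± 0.15 (log2, adjusted p = 2.8e-14), Junb at 1.17 ± 0.08 (adjusted p = 2.5e-44) and Fosl1 at -0.74 ± 0.23 (adjusted p = 0.019), in a comparison where 11% of the genes with an adjusted p were below 0.05. It gives Jun at 0.48 ± 0.18 (adjusted p = 0.06), Fosb at -0.37 ± 0.23 (adjusted p = 0.34) and Jund at 0.06 ± 0.08 (adjusted p = 0.73). The DMSO library also differed from both rosiglitazone libraries in summed macrophage markers (1029 against 301 and 410 CPM) and cardiomyocyte markers (7797 against 13879 and 13437 CPM), and the part of these differences in the AP-1 values was not tested.

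Between 0.5 and 24 h of rosiglitazone, Fos was 36.5-fold lower, at 5.48 ± 1.03 CPM (SD, n = 2) against 200 ± 38.0 (log2 -5.19 ± 0.70 SE, adjusted p = 0.066 by edgeR). Fosb was 19.3-fold lower (-4.27 ± 0.74, adjusted p = 0.079), Jun 3.55-fold lower (-1.83 ± 0.32, adjusted p = 0.079) and Junb 2.19-fold lower (-1.13 ± 0.29, adjusted p = 0.14). None of the 9 members passed, where 0.0958% of all genes did. These 4 genes had an unadjusted p under 0.05, all lower, as did 9.12% of all genes. With DESeq2 all 4 were called lower (adjusted p = 5.4e-14 for Fos, 9.5e-08 for Fosb, 2.6e-05 for Jun and 0.014 for Junb), where 5.35% of the genes with an adjusted p were called lower.

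None of the other 5 members passed at 24 h. Jund was at 146 ± 11.0 CPM against 116 ± 1.74 (SD, n = 2 each; log2 0.33 ± 0.26 SE), and Fosl1 had a log2 difference of 0.43 ± 0.62. For Fosl2, with a fitted level 2.16-fold higher, and Atf3 (0.02 ± 0.60) the mean hides replicates that stood 9.33 and 4.38 times apart. Without replicate 2 of 24 h the log2 differences were -1.28 for Fosl2 and -1.43 for Atf3, so that 1 library decided their sign, and the 24 h level of these genes cannot be given as 1 value. In the authors' deposited table, which compares the same libraries, the log2 fold change was -5.08 ± 0.18 for Fos (adjusted p = 1.4e-162), -3.74 ± 0.45 for Fosb (adjusted p = 2e-15), -1.76 ± 0.22 for Jun (adjusted p = 9.2e-15) and -1.09 ± 0.19 for Junb (adjusted p = 7.6e-08). There 39% of the genes with an adjusted p were below 0.05, and Fosl2 (0.91 ± 0.56) and Atf3 (0.05 ± 0.46) were not among them.

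For Atf3, Junb and Jund, both libraries of 48 h lay above both of 24 h, which 14.5% of all genes did. In 0 of the 9 members they lay below, beside 14.6%. Batf3 also had them above, but it passed the filter on low counts only through its 48 h libraries. Its higher level there was thus a condition of being tested. Atf3 was at 189 ± 4.52 CPM against 55.6 ± 49.4 (SD, n = 2 each; log2 1.76 ± 0.62 SE, adjusted p = 0.49 by edgeR) and Junb at 155 ± 11.2 against 73.5 ± 23.6 (1.07 ± 0.29, adjusted p = 0.34). Jund had a log2 difference of 0.40 ± 0.26, and Batf3 had 24 and 11 reads against 0 and 9. None of these passed, nor did any other member, and 0% of all genes passed. The unadjusted p of Atf3 and Junb was under 0.05, as it was for 2.80% of all genes in this direction. Fos (0.63 ± 0.61), Fosb (-0.87 ± 0.71) and Jun (-0.15 ± 0.31) stayed within the overlap of their libraries. DESeq2 called Junb alone of the 9, where 0.969% of genes were called higher. The authors' deposited table has Junb at 1.03 ± 0.2 (adjusted p = 5.9e-06) and Atf3 at 1.42 ± 0.41 (adjusted p = 0.0069), with 16.5% of genes below 0.05.

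At 48 h, Fos, Fosb and Jun were called lower than at 0.5 h of rosiglitazone, and 0 members were called higher. The count of 3 called of 9 stood against 6.59% of all genes called, 4.62% lower and 1.97% higher. Fosb was at 1.81 ± 1.12 CPM against 61.1 ± 43.4 (SD, n = 2 each; 35.4-fold lower, log2 -5.14 ± 0.79 SE, adjusted p = 0.016 by edgeR), and Fos at 8.63 ± 7.65 against 200 ± 38.0 (23.7-fold lower, -4.57 ± 0.68, adjusted p = 0.016). Jun was at 68.2 ± 2.49 against 268 ± 80.9 CPM (3.93-fold lower, -1.97 ± 0.32, adjusted p = 0.018). Without replicate 1 of rosiglitazone 0.5 h or replicate 1 of 48 h none of the 3 passed, without replicate 2 of 0.5 h Fosb alone passed, and without replicate 2 of 48 h Fos alone passed, while each stayed lower (log2 -5.95 to -3.87 for Fos, -5.89 to -4.14 for Fosb, -2.25 to -1.65 for Jun). Such fits leave a group with 1 library, which is assumed to vary like the other groups.

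On the other side, Atf3 was 3.45-fold higher at 48 h than at 0.5 h of rosiglitazone (189 ± 4.52 against 54.8 ± 16.5 CPM, SD, n = 2 each; log2 1.79 ± 0.62 SE, adjusted p = 0.14 by edgeR). Fosl2 was 4.31-fold higher (42.8 ± 17.1 against 9.94 ± 0.135 CPM; 2.11 ± 0.88, adjusted p = 0.21) and Jund 1.66-fold higher (193 ± 37.4 against 116 ± 1.74 CPM; 0.73 ± 0.26, adjusted p = 0.14). These 3 had an unadjusted p under 0.05, as did 9.65% of all genes in this direction, and none passed after adjustment. The 24 h libraries enter their spread. Without both of them, in a fit chosen after seeing the data, Atf3 (SE 0.27, adjusted p = 0.0033) and Fosl2 (SE 0.35, adjusted p = 0.0058) were called higher and Jund was not (adjusted p = 0.059), while 6.77% of all genes were called higher. Whether Atf3 and Fosl2 were called thus depended on the 24 h libraries in the fit.

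Against all 3 libraries of 0.5 h, DMSO included, the 4 later libraries again had lower Fos, Fosb and Jun. Fos was 21.6-fold lower (log2 -4.43 ± 0.49 SE, adjusted p = 0.0049 by edgeR), Fosb 33.0-fold lower (-5.05 ± 0.56, adjusted p = 0.0049) and Jun 3.27-fold lower (-1.71 ± 0.24, adjusted p = 0.0080). These 3 of the 9 stood against 11.4% of all genes called, 7.29% lower. All 3 genes passed with any single library left out, the largest adjusted p being 0.049, for Jun without replicate 1 of rosiglitazone 0.5 h. Fos, Fosb and Jun were also the members whose late libraries all lay below the early ones, which 19.5% of all genes did, and Jund alone had them all above, which 14.2% did. Jund was 1.47-fold higher (0.55 ± 0.20, adjusted p = 0.12) and Fosl2 3.22-fold higher (1.69 ± 0.68, adjusted p = 0.15). Whether Fosl2, Atf3 and Jund passed depended on the libraries of 24 h in the fit. Fits without 1 of these leave a group with 1 library, and the share of all genes called there is not given here. Across the 9 members the median log2 difference was 0.26, beside -0.07 over all genes tested. That median counts Batf3, which was tested only because of its reads at 48 h. Without Batf3 the middle values were -0.19 for Junb and 0.26 for Fosl1, so no shift of the family is read from it. The comparisons between times share libraries, so they are not separate evidence for one another.

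**Figure D2:**
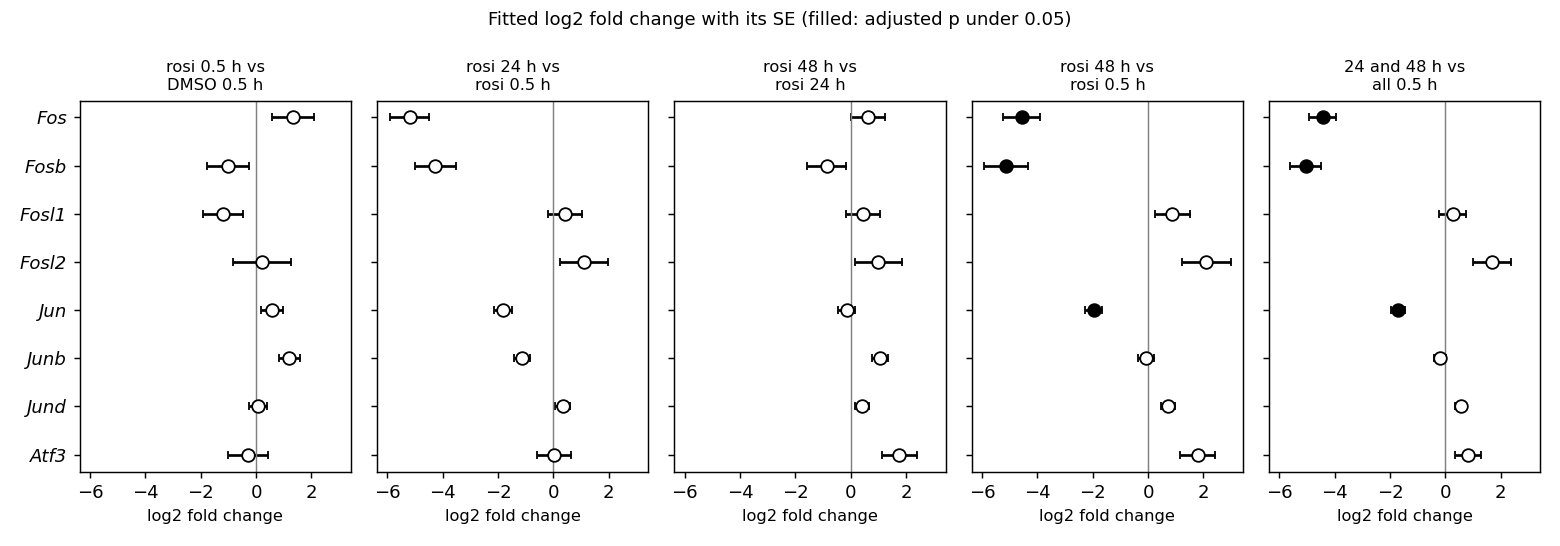
Fitted log2 fold change (horizontal axis, first group minus second) of 8 AP-1 genes (vertical axis, Batf3 left out for its few reads) in the 5 comparisons. Bars are the SE and filled points have an adjusted p under 0.05. Filled points are Fos, Fosb and Jun in the 2 right-hand panels, all below 0.

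The make-up of the AP-1 reads differed between early and late libraries. The 9 genes together summed to 652 CPM in DMSO, 1003 and 750 after 0.5 h of rosiglitazone, 357 and 419 at 24 h, and 660 and 679 at 48 h. Both libraries of 48 h thus lay beside DMSO, and those of 24 h were the lowest. Longer transcripts give more reads, so shares of reads show how the make-up differed between libraries and not which gene was the more abundant.

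Fos, Fosb and Jun together held 58.6% of the family's reads in DMSO, 64.2% and 55.3% after 0.5 h of rosiglitazone, 27.5% and 16.6% at 24 h, and 11.2% and 12.2% at 48 h. Fosl2, Jund and Atf3 held 28.7% in DMSO, 19.3% and 22.4% after 0.5 h of rosiglitazone, 45.6% and 67.5% at 24 h, and 61.8% and 65.1% at 48 h. Early and late libraries did not overlap in either share. Each of these sets joins genes whose levels differed in the same direction between 0.5 and 48 h of rosiglitazone in these libraries. Junb, Fosl1 and Batf3 are in neither set. The opposite shifts of the shares were thus built in by the choice of genes and are not a separate result. Within the reads of the 4 Fos genes, Fosl2 took 2.98% to 4.53% in the 3 early libraries, 20.0% and 70.8% at 24 h, and 74.3% and 57.6% at 48 h. Fosb took 55.2% of them in DMSO against 27.3% and 14.0% in rosiglitazone at 0.5 h, and Fos 35.2% against 67.5% and 79.7%, so that the DMSO library was the one in which Fosb reads outnumbered Fos reads. Within the reads of the 3 Jun genes, Jun took 43.1% to 54.1% early, 27.8% and 23.1% at 24 h, and 17.5% and 15.3% at 48 h, while Jund took 19.5% to 30.8% early and 41.8% to 56.2% late. These shares follow from the levels above and were not tested on their own.

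**Figure D3:**
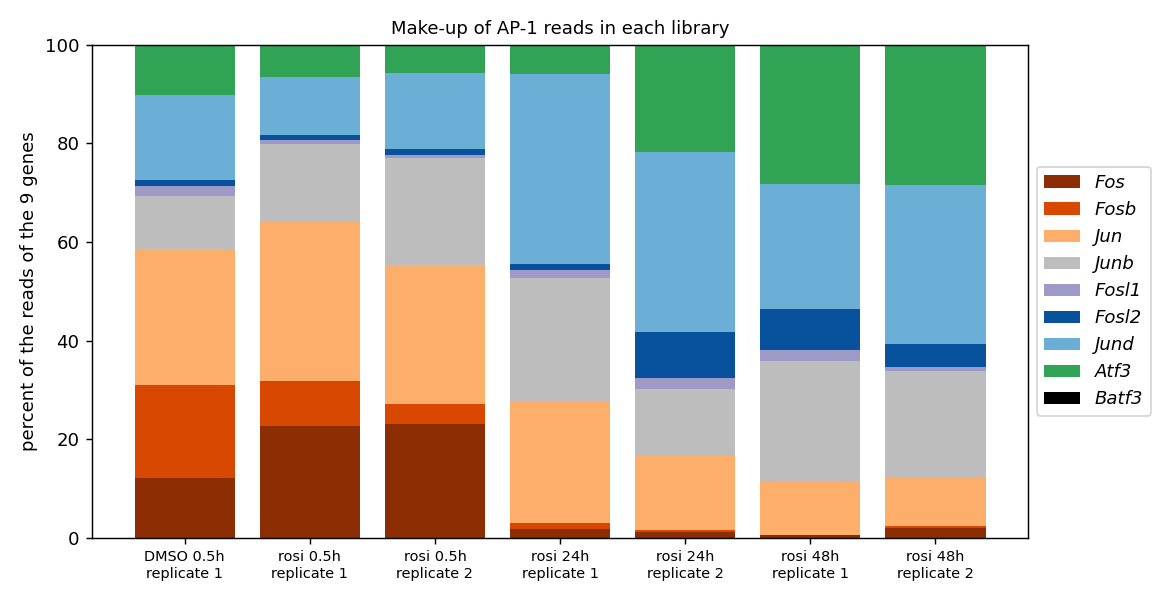
Share of the summed reads of the 9 AP-1 genes taken by each gene (vertical axis, percent) in each of the 7 libraries (horizontal axis). The brown and orange segments (Fos, Fosb, Jun) shrink from 55.3% to 64.2% at 0.5 h to 11.2% and 12.2% at 48 h, and the blue and green segments (Fosl2, Jund, Atf3) reach 61.8% and 65.1%. The genes in these sets share a direction in the same libraries, so the opposite shifts are not a separate result.

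Levels of cell type markers moved with time as well, those of the labelled heart muscle cells included. In these counts, fell and rose mean called lower and called higher. From 0.5 to 48 h of rosiglitazone, 4.62% of all genes fell and 1.97% rose. Marker calls with a library left out are not given here. Of the cardiomyocyte markers, 9 of 11 fell from 0.5 to 48 h of rosiglitazone and none rose, with a median log2 difference of -5.31. Of 9 smooth muscle and pericyte markers 5 fell, with sums of 4740 and 4478 CPM at 0.5 h, 1469 and 867 at 24 h, and 342 and 876 at 48 h. Of 7 endothelial markers 3 fell and of 8 epicardial and mesothelial markers 4 fell (median log2 -2.74 and -2.18), and none of either rose. Of the 10 fibroblast markers 1 was called, higher, but only 3 had a positive difference and the median log2 difference was -0.97. Of the 11 macrophage markers 3 were called lower and 0 higher (median log2 -1.44). The replicates of 24 h that differed in Fosl2 and Atf3 differed in cardiomyocyte markers too: replicate 1, with 4.15 CPM of Fosl2 and 20.7 of Atf3, had a marker sum of 12350 CPM, and replicate 2, with 38.7 and 90.5 CPM, a sum of 2465. The part of these markers in the AP-1 results was not tested.

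Genes around AP-1 were described from 6 lists: upstream kinases, serum response factor, decay factors, bZIP partners, the integrated stress response and known targets. Of their genes, 27 were called in 24 and 48 h against all 0.5 h libraries and 18 in 48 h against 0.5 h of rosiglitazone, and 0 in the other 3 comparisons. Each kept its direction with any 1 library left out. The calls were less stable: Acta1, Cebpb and Edn1 passed without any single library in the first of these comparisons, the other 24 lost the call without at least 1 library, and in the second all 18 did, in each case without a library of 0.5 or 48 h and for Cxcl1 also without one of 24 h. DESeq2 called all of them, and 22.6% and 17.5% of all genes in these comparisons. In 24 and 48 h against all 0.5 h libraries, as given below where no other comparison is named, 11.4% of all genes were called, 4.11% higher and 7.29% lower. In the counts of list genes below, rose and fell mean called higher and called lower.

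MAP kinases and serum response factor carry signals to Fos and Jun. Calls among their mRNAs stand beside 4.11% of all genes called higher and 7.29% called lower late against early. Late against early, 1 of 27 tested genes of the MAP kinase cascades rose and 1 fell (median log2 0.10, beside -0.07 over all genes; 0 to 4 higher and 0 to 3 lower with 1 library left out). Map2k1, the ERK kinase MEK1, was at 124 to 150 CPM in the early libraries, 194 and 233 at 24 h, and 309 and 297 at 48 h (0.93 ± 0.19, adjusted p = 0.025). Rps6ka3, the ERK-dependent kinase RSK2, was at 168 to 179 CPM early and 94.6 to 106 late (-0.81 ± 0.18, adjusted p = 0.029). Between rosiglitazone at 0.5 and 48 h the 2 calls were Map2k1 (1.26 ± 0.25, adjusted p = 0.031) and the p38 kinase kinase Map2k6, at 7.40 and 9.05 CPM against 0.512 and 0 (log2 -4.76, adjusted p = 0.049 by edgeR). None of the 5 tested genes for serum response factor and its cofactors was called in any of the 5 comparisons by edgeR, and 1 was called lower late against early by DESeq2. Srf itself was at 131 CPM in DMSO, 106 and 85.4 after 0.5 h of rosiglitazone, 84.2 and 47.4 at 24 h, and 52.7 and 62.5 at 48 h.

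Of 11 genes that act in the decay of AP-1 mRNA or protein, 1 rose and 2 fell late against early (median log2 0.19; 0 to 2 higher and 0 to 2 lower with 1 library left out). Zfp36, or tristetraprolin, which binds AU-rich elements such as that of Fos mRNA, was at 43.2 CPM in DMSO, 151 and 125 after 0.5 h of rosiglitazone, 39.8 and 30.8 at 24 h, and 69.1 and 77.1 at 48 h (-0.89 ± 0.21, adjusted p = 0.035). Its DMSO level lay below both libraries of 48 h, so the groups overlapped. Hnrnpd, which encodes the AU-rich element binder AUF1, was at 196 to 217 CPM early and 108 to 129 late (-0.83 ± 0.19, adjusted p = 0.034), and the deadenylase gene Cnot7 at 56.6 to 61.7 CPM early and 93.5 to 127 late (0.87 ± 0.20, adjusted p = 0.032).

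Other bZIP genes, which share partners or sites with AP-1, included several with higher late levels. Of 28 tested, 6 rose and 2 fell late against early, Atf4 and Ddit3 of the stress response list among those that rose (median log2 0.45; 1 to 12 higher and 0 to 3 lower with 1 library left out), and 6 rose and 0 fell in 48 h against 0.5 h of rosiglitazone. Cebpb, a bZIP factor of inflammation and adipogenesis, was at 54.2 CPM in DMSO, 42.0 and 60.9 after 0.5 h of rosiglitazone, 125 and 156 at 24 h, and 343 and 325 at 48 h (48 h against 0.5 h 2.70 ± 0.30, adjusted p = 0.0093). Mafg, a small Maf protein, was at 29.5 to 34.8 CPM early and 67.5 to 113 late (1.39 ± 0.22 late against early, adjusted p = 0.012), and Nfe2l2, the antioxidant regulator NRF2, at 242 to 260 CPM early and 398 to 627 late (0.98 ± 0.20, adjusted p = 0.022). Creb5 fell, from 5.83 to 16.2 CPM early to 2.67 to 3.25 late (-1.75 ± 0.42, adjusted p = 0.038). Cebpa, a factor of fat cell differentiation, was called between 0.5 and 48 h of rosiglitazone, at 8.84 and 13.8 against 39.0 and 30.6 CPM (1.62 ± 0.38, adjusted p = 0.048), but its DMSO level of 22.0 CPM lay between them. Its relative Cebpd was at 15.5 CPM in DMSO and 23.4 to 95.2 CPM elsewhere and was not called.

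Atf3 is a target of Atf4, the central factor of the integrated stress response. Of 15 tested genes of that response, 5 rose and 0 fell late against early (median log2 0.35; 0 to 5 higher with 1 library left out), and 3 rose in 48 h against 0.5 h. Ddit3, or CHOP, was at 41.4 CPM in DMSO, 45.5 and 59.6 after 0.5 h of rosiglitazone, 133 and 318 at 24 h, and 199 and 323 at 48 h (2.32 ± 0.37, adjusted p = 0.012). Trib3, an Atf4 target that restrains it, was at 75.0 to 109 CPM early, 185 and 367 at 24 h, and 482 and 470 at 48 h (2.03 ± 0.29, adjusted p = 0.0085). Atf4 was at 515 to 607 CPM early and 959 to 1257 late (1.08 ± 0.22, adjusted p = 0.023). Hspa5, the chaperone BiP, was at 1447 to 1564 CPM early and 2742 to 4724 late (1.22 ± 0.25, adjusted p = 0.025), and Ppp1r15a, the phosphatase subunit GADD34, at 93.4 to 133 CPM early and 155 to 537 late (1.74 ± 0.42, adjusted p = 0.041). In replicate 1 of 24 h, where Atf3 was at its lowest, all 5 of these genes were above their early levels. Chac1 and Sesn2, also Atf4 targets, were at 21.8 to 47.3 and 107 to 202 CPM over all libraries and were not called.

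Of 36 tested genes known as AP-1 targets, 4 rose and 7 fell late against early, with a median log2 difference of 0.09 (0 to 5 higher and 2 to 9 lower with 1 library left out). Edn1, the hypertrophic peptide endothelin-1, was at 19.9 CPM in DMSO, 69.0 and 51.9 after 0.5 h of rosiglitazone, 0.612 and 0 at 24 h, and 1.02 and 0.930 at 48 h (adjusted p = 0.0054). Its early and late libraries stood far apart, as those of Fos did, and DMSO was again the lowest of the early ones. Hbegf, a heparin-binding growth factor, was at 27.4 to 41.8 CPM early and 5.02 to 10.0 late (-2.14 ± 0.36, adjusted p = 0.013). The skeletal actin gene Acta1 was at 91.1 to 120 CPM early, 49.0 and 47.6 at 24 h, and 6.15 and 15.3 at 48 h (-2.24 ± 0.33, adjusted p = 0.0093). Nppa, the atrial natriuretic peptide gene, was at 1640 and 720 CPM at 24 h and 142 and 265 at 48 h against 856 to 1657 early (-1.38 ± 0.35, adjusted p = 0.047). Acta1 and Nppa are also genes of heart muscle cells, whose markers fell as given above; the part of that fall in these values was not tested.

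Other targets were higher late. Sod2, the mitochondrial superoxide dismutase, was at 175 to 295 CPM early, 532 and 418 at 24 h, and 2533 and 1190 at 48 h (2.07 ± 0.32, adjusted p = 0.011), and Odc1, the first enzyme of polyamine synthesis, at 181 to 200 CPM early and 400 to 486 late (1.22 ± 0.20, adjusted p = 0.012). The cytokine gene Il6 was at 0 to 1.13 CPM through 24 h and at 58.3 and 4.74 CPM at 48 h, and was not called. At 0.5 h, Spp1, or osteopontin, was at 2625 CPM in DMSO against 948 and 1372 in rosiglitazone, and Hmox1 at 425 against 185 and 229; neither was called. Macrophages also make both, the macrophage markers summed to 1029 CPM in DMSO against 301 and 410, and their part was not tested.

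**Figure D4:**
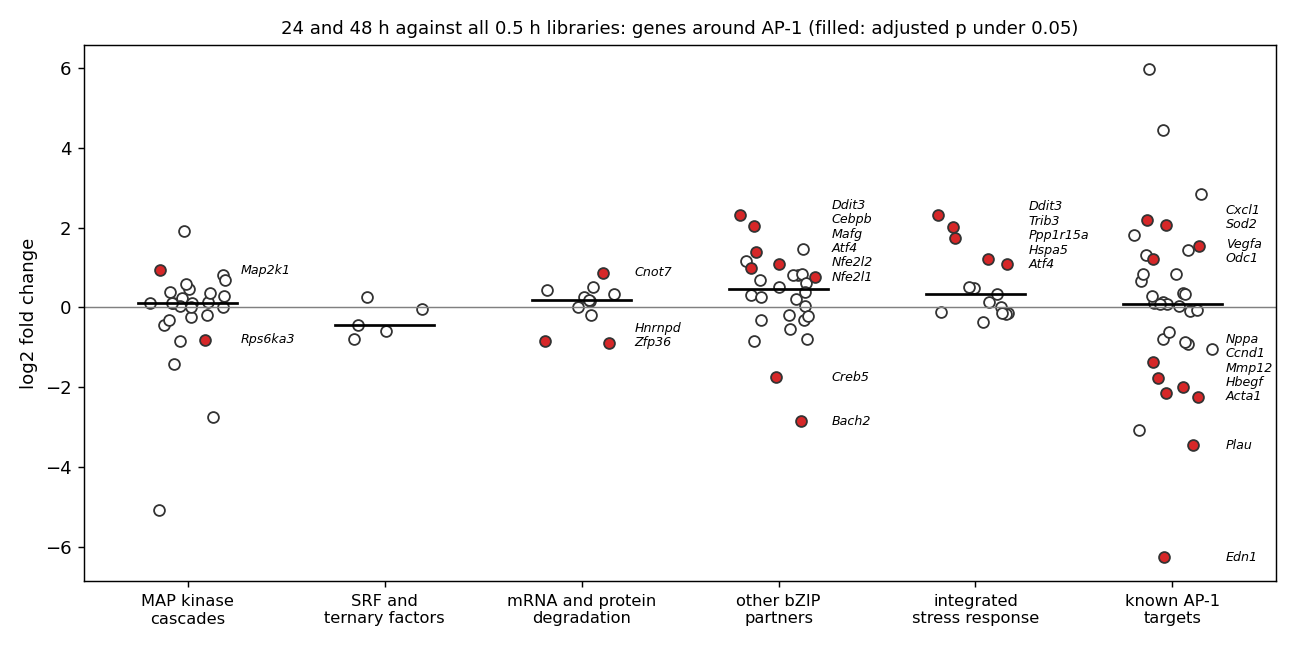
Log2 fold change in 24 and 48 h against all 0.5 h libraries (vertical axis) of each tested gene of 6 lists around AP-1 (horizontal axis). Filled points have an adjusted p under 0.05 and are named beside the points, and lines are list medians. The integrated stress response list has 5 genes called higher and 0 lower, and the AP-1 target list 4 higher and 7 lower.

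Likeness of pattern was measured by the root mean square difference of log2 CPM over the 7 libraries, each gene centred on its mean, among 10074 genes with a mean of at least 5 CPM. The values are a description, since all genes share the libraries. Within the family, Fos and Fosb differed by 1.01 log2 units, Atf3 and Fosl2 by 0.56, and Fos and Fosl2 by 3.21. Jun differed from Fos by 1.57, from Fosb by 1.78 and from Junb by 0.91. Nearest to Fos outside the family were Akap5 (0.39), Abca9 (0.58) and Scn7a (0.62), and nearest to Fosb were Vgll3 (0.63), Hmcn1 (0.71) and Ckap2l (0.75). Akap5, a kinase-anchoring protein gene, was at 13.0 CPM in DMSO, 22.6 and 18.2 after 0.5 h of rosiglitazone, and 0.366 to 2.79 in the late libraries.

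Jun had closer neighbours in Plekhg2 (0.19), Cacna1h (0.21) and Ajuba (0.21). Plekhg2 was at 53.1 CPM in DMSO, 86.1 and 51.3 after 0.5 h of rosiglitazone, and 16.9 to 19.5 in the late libraries. For Fosl2 the nearest were Pappa (0.29), Rnf157 (0.34) and Itpk1 (0.35), and for Atf3 Tbc1d16 (0.37), Kif5c (0.39) and Sh2b2 (0.43). Pappa, which encodes a protease of IGF-binding proteins, shared the split of 24 h, at 12.4 CPM in replicate 1 and 125 in replicate 2. For Batf3, whose range rests on few reads, Sh2b2 (0.48), Pde4b (0.51) and Rnf157 (0.51) were nearest. Fosl1, Junb and Jund ranged over less than 2 log2 units, and no neighbours are named for them.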

How the data were processed

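The authors deposited raw counts of reads for each gene, with a column per sample. Per the submitters' processing notes, FastQC 0.11.5, cutadapt 1.11, HTSeq and DESeq2 were used and the builds Rnor_6.0 and hg19 are named; an aligner and a strand setting are not named there, although the library kit keeps strand per the labels' protocols. Atf3 and Fosb overlap another gene in RefSeq GRCr8, and reads there could not be assigned by strand. Per the file headers, the authors' deposited table also holds their log2 fold change, its SE and an adjusted p-value. Columns of 24 and 48 h were matched to libraries by group and number.

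The 14 samples are 7 libraries in 2 splits each, which were summed (the chi-square over genes, divided by its degrees of freedom, was 0.963 to 1.015 and every p was at least 0.112). Genes were tested with edgeR 4.0.16 in R 4.3.3 (TMM scaling, its filter on low counts, robust quasi-likelihood, 4 groups in 1 fit, 3 residual degrees of freedom, 15655 genes) and p-values were adjusted by Benjamini-Hochberg with a threshold of 0.05. CPM are relative to the TMM-scaled library size. The fit was tested on simulated data. DESeq2 1.42.0, other scalings, filters and thresholds, splits, the replicate number as a block and leaving out libraries were alternatives. Named are all 9 members, from each gene list up to 3 genes with the smallest p in 24 h against 0.5 h and in rosiglitazone against DMSO and up to 6 past the threshold, and the 3 genes nearest in pattern to a member with a range over 2 log2 units; list genes so named that were not called and not discussed in the text are left out. The members and lists were chosen with earlier results of these data known.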

Additional observations from a re-analysis of the deposited data

How the results depend on the processing

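Of 688 values of 8 members recomputed for 40 results, 616 kept their direction and their side of the threshold, 10 lost a call, 47 gained one and 15 changed sign. For rosiglitazone against DMSO at 0.5 h, 1 member was called with splits as replicates and 2 with only the groups compared, instead of 0. For 24 h against 0.5 h, DESeq2 called 4 and no filter on low counts 3, splits as replicates 5, an adjusted p under 0.1 gave 3, and leaving out 1 library gave 0 to 3. For 48 h against 24 h, DESeq2 called 1, splits as replicates 3, and leaving out 1 library 0 to 2, both without replicate 2 of 24 h (Atf3 and Fosl2). For 48 h against 0.5 h, 3 were called in the main analysis, 6 with splits as replicates, 5 with only the groups compared or without both 24 h libraries, 0 at an adjusted p under 0.01, and 0 to 5 with 1 library left out. For late against early it was 3, with 5 from splits as replicates, 6 without both 24 h libraries, and 3 to 6 with 1 library left out. Splits are parts of 1 library, so calls from them reflect too small a spread by construction. The cause of the other shifts was not tested. The share of all genes called also changes with the fit, and it is given above for only some of these fits. These counts therefore cannot tell a shift of the members from a shift over all genes. For 45 calls of list genes, 595 of 781 recomputed values kept the call, 186 lost it and 0 changed sign.

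No pairing by replicate number was seen: deviations of same-numbered libraries correlated at -0.083, 0.062 and -0.122. With 2 libraries per group, these values cannot exclude a pairing that larger differences between libraries would mask. With the replicate number as a block, 0, 0, 0, 3 and 3 members were called in the 5 comparisons, and with the 24 h numbers crossed 0 in 48 h against 24 h. The block turned 3 small differences: Fosl2 -0.05 and Jund -0.02 at 0.5 h, and Atf3 -0.19 at 24 h against 0.5 h. With 1 library left out, the log2 difference spanned 0 in these cases: at 24 h against 0.5 h, Fosl2 ranged from -1.28 to 1.96 and Atf3 from -1.43 to 0.72; at 48 h against 24 h, Fos from -0.76 to 1.34, Fosl1 from -0.39 to 0.94 and Jun from -0.38 to 0.12; at 48 h against 0.5 h, Junb from -0.17 to 0.01; and late against early, Fosl1 from -0.14 to 0.66 and Junb from -0.58 to 0.06. Without both 24 h libraries, Junb late against early was 0.34. None of these members was called in the comparison concerned. The depth of replicate 2 of 48 h limits the low members most: Fosb rests on 28 reads there and Batf3 on 11.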
